A study of Drosophila melanogaster with 2 samples.

Results

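Binding of Six4 was described here at divergent promoter pairs, places where a gene on the minus strand and a gene on the plus strand start close together and are transcribed away from each other. The members were peaks of the reproducible peak set (the set kept by the irreproducible discovery rate procedure, IDR) whose summit lay within 500 bp of a protein-coding transcription start site (TSS). That TSS also had to have a TSS of another protein-coding gene on the opposite strand within 1000 bp upstream. This rule uses positions only, and 821 of 3974 peaks met it (20.7%, exact binomial 95% interval 19.4 to 22.0%). The other 1040 peaks with a summit within 500 bp of a TSS had no such partner and are called peaks at single promoters. A pair is written with the minus-strand gene first, as in Art3/mRpS10.

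In Drosophila, genes are packed closely, and many broadly expressed genes share a short intergenic stretch with a neighbour on the other strand. Such stretches usually lie in an open, nucleosome-poor region and often carry promoter elements of housekeeping genes: the DNA replication-related element (DRE), bound by DREF and overlapping the site of the insulator protein BEAF-32, and Motif 1, bound by M1BP. Six4, a homeodomain transcription factor related to sine oculis, is known in the fly embryo for its part in the development of mesoderm, muscle and gonad.

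The labels give 1 group of 2 samples, biological replicates 1 and 3 of a transgenic line with an inserted transgene that stably produces Six4 carrying GFP at its C terminus. Chromatin of whole embryos aged 0 to 16 h, males and females pooled, was sheared to 200 to 800 bp and recovered with an antibody to GFP. Both replicates came from the same line, no cell type was separated, and no control library or second condition was analysed here. Library depth is unknown. Every value is therefore a description of 1 condition, and whole-embryo lists cannot tell in which cells a site was bound. Intervals below cover counting error over peaks, pairs or genes, which are not replicates, and neighbours are not independent of each other.

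The DNA between the starts is shown for 8 pairs on build dm6, plus strand, from the base after the TSS of the minus-strand gene to the base before the TSS of the plus-strand gene, with no annotated exon inside. The first pair of sequences belongs to the strongest members whose stretch was at most 300 bases and held the summit, and the capitals mark the 21 bases centred on the summit. Art3/mRpS10 is chr3R:15229409-15229664 and Tcs5/CHMP2B is chr3L:5139396-5139618.
Art3/mRpS10: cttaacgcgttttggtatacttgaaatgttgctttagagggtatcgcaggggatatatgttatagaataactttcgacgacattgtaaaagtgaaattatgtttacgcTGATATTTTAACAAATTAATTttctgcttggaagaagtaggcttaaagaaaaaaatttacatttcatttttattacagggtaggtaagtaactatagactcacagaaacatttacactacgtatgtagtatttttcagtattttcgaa
Tcs5/CHMP2B: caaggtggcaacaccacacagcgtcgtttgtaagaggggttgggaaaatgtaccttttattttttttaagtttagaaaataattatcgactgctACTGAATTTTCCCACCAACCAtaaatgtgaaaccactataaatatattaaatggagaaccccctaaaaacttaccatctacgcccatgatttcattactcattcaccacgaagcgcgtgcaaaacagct
The next pair shows where a DRE (TATCGATA, in capitals) lay: Atat/Shc at chr3L:9426759-9427009 and fws/Lamtor3 at chr2L:17481030-17481230. In both, the DRE marked was close to the start of the plus-strand gene and away from the summit, which was at base 134 of 251 and base 112 of 201. The fws/Lamtor3 stretch also begins with atcgata, part of a DRE, at the minus-strand end. That end is farther from the summit than the 100 bp searched for motifs.
Atat/Shc: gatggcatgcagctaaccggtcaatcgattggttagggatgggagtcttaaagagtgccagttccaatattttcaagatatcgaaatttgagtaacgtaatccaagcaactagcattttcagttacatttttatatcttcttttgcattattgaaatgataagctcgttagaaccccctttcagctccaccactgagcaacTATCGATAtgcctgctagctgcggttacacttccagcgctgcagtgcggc
fws/Lamtor3: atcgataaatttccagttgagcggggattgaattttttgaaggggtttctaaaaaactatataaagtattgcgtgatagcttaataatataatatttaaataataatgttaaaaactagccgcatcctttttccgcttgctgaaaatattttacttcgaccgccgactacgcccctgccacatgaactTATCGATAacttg
The third pair holds the M1BP core (GGTCACAC, or GTGTGACC on the other strand, in capitals): Sf3b6/Tnpo at chr3L:6193180-6193479 with its summit at base 118, and CG10214/CG10375 at chr3R:23767489-23767711 with its summit at base 78. Here the core lay near the start of the minus-strand gene.
Sf3b6/Tnpo: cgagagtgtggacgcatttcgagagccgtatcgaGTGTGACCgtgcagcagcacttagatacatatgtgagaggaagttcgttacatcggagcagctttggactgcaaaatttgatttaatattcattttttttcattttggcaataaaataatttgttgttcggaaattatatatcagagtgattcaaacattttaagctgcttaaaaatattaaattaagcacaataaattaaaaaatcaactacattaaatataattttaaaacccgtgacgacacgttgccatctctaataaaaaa
CG10214/CG10375: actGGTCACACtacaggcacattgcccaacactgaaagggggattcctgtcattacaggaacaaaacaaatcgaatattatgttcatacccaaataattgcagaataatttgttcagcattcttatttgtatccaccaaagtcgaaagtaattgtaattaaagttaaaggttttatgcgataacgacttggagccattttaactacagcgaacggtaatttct
The last pair holds the core of the site of Six4 and its relatives (TGATAC, or GTATCA on the other strand, in capitals): CG8142/Ucp4A at chrX:17844705-17844948 with its summit at base 141, and CG13097/PIG-U at chr2L:8514869-8515095 with its summit at base 51. The core lies at bases 90 to 95 of the first and 11 to 16 of the second, so neither summit falls on it.
CG8142/Ucp4A: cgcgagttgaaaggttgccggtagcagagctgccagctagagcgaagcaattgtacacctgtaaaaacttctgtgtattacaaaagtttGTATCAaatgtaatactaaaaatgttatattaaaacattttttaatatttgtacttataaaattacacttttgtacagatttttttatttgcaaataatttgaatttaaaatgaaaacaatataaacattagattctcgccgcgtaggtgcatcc
CG13097/PIG-U: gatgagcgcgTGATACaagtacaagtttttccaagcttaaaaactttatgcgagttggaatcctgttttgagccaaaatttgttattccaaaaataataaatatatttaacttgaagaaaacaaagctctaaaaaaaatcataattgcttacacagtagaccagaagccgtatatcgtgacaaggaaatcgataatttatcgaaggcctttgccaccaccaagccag

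Divergent pairs held more of the promoter peaks than their share of genes. Of 1861 promoter peaks, 821 (44.1%, interval 41.8 to 46.4%) were at a divergent pair, whereas 5052 of 13945 protein-coding genes (36.2%) had a divergent partner. Counted by pair, 755 of 2667 (28.3%, interval 26.6 to 30.1%) had a member peak, and 1507 of the 5052 genes with a partner (29.8%) belonged to such a pair. Genes were also compared one at a time. A summit lay within 500 bp of any TSS at 31.5% of genes with a partner and at 9.32% of 8893 genes without one. The difference was 22.2 percentage points (95% Newcombe interval 20.7 to 23.6). With the outermost TSS alone, which gives each gene a window of equal length, the shares were 29.3% and 8.30% (21.0 points, 19.6 to 22.4). These counts do not remove the sharing of peaks, since 733 of 821 member summits (89.3%) lay within 500 bp of both starts. Such a peak can count for both genes of a pair, and the intervals treat these genes as independent. Whether a gene is active in the embryo was not measured in these lists, and its part in the difference was not tested.

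Member peaks were not stronger than peaks at single promoters. Their signal, the authors' peak caller's value for each peak, ran from 81.12 to 1741 with a median of 131.9 (quartiles 102.7 and 196.9). At single promoters the median was 135.6 (quartiles 101.2 and 211.3), so the ranges largely overlapped, with median ranks of 1893 and 1805 among 3974. The share of peaks at divergent pairs changed little within the reproducible set, 22.4% of the first 500 by rank and 18.3% of ranks 3001 to 3974. It was lower further down the pooled list, 15.1% of ranks 3975 to 8000 and 5.04% of ranks 15001 to 30000. As a share of promoter entries it was 39.0% in the first 500, 46.8% at ranks 2001 to 3000, 43.2% at ranks 3001 to 3974 and 25.9% at ranks 15001 to 30000.

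The distance between the starts went with how often a pair was bound. Among pairs with starts 1 to 100 bp apart, 94 of 429 (21.9%) had a member, and at 101 to 200 bp 72 of 357 (20.2%). At 201 to 300 bp the count was 227 of 542 (41.9%) and at 301 to 500 bp 239 of 667 (35.8%). At 501 to 1000 bp it was 123 of 672 (18.3%). Of the 4 steps between neighbouring classes, with intervals widened over the 4, the rise from 101 to 200 to 201 to 300 bp (21.7 points, 13.9 to 28.9) and the fall past 500 bp (−17.5 points, −23.4 to −11.5) left out 0. The steps at 100 bp (−1.74 points, −8.93 to 5.63) and at 300 bp (−6.05 points, −13.0 to 0.971) did not. With the strongest 3974 entries of a single replicate the 201 to 300 bp class was at 41.0% in replicate 1 and 40.4% in replicate 3, and the 301 to 500 bp class at 32.4% and 35.1%.

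**Figure D1:**
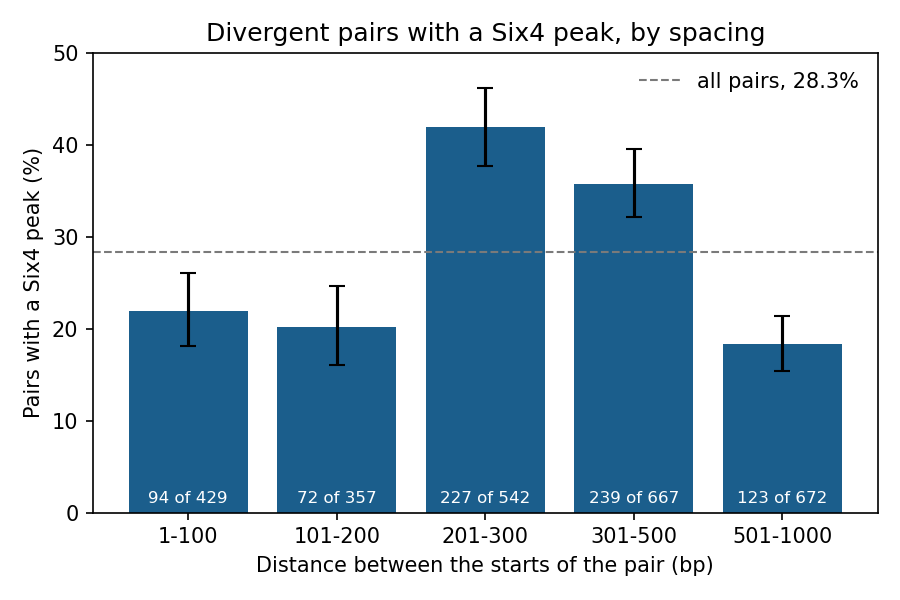
The share of divergent pairs with a Six4 peak (vertical axis, %) in 5 classes of distance between the starts (horizontal axis, bp), with exact 95% intervals and counts of pairs. The bars at 201 to 300 bp (41.9%) and 301 to 500 bp (35.8%) stand above the dashed line for all pairs (28.3%), and the other 3 bars stand below it.

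Most summits lay inside the shared stretch. Of 821 summits, 679 (82.7%, interval 79.9 to 85.2%) were between both starts, and the nearest TSS was 90 bp away at the median, against 182 bp for peaks at single promoters. By the rule a member has a second start within 1000 bp, which caps this distance for summits between the starts. The shorter distance is therefore in part set by the rule. Lying upstream of the nearest TSS was also common at single promoters, at 87.1% of peaks (interval 84.9 to 89.1%). The partner start was also close, at a median of 227 bp, and 733 summits (89.3%) lay within 500 bp of both starts. The interval of 335 peaks (40.8%) covered both starts. The strands were close to even: the nearest TSS was that of the minus-strand gene for 405 members (49.3%, interval 45.9 to 52.8%).

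Where the summit lay changed with the spacing, taken here from the TSS nearest to the summit to the nearest TSS of its partner, while pairs above were classed by their closest starts. In pairs 1 to 100 bp apart the median summit was 48 bp downstream of the nearest TSS, inside a gene, and 10 of 68 (14.7%) lay between the starts. At 101 to 200 bp the median was 23 bp upstream (−23 bp), at 201 to 300 bp −81 bp, at 301 to 500 bp −109 bp and at 501 to 1000 bp −122 bp. Both replicates gave the same order, with medians of 56.5 and 54 bp downstream in the closest class and −126 and −128 bp in the widest. At 201 to 300 bp, 122 of 243 summits (50.2%) lay in the middle 1 of 3 equal parts of the stretch, and 162 peaks (66.7%) covered both starts. At 501 to 1000 bp, 38 of 158 (24.1%) were in that middle part. No interval there could cover both starts, since the widest member peak was 452 bp. There 100 of 158 summits (63.3%) lay within 200 bp upstream of a start. The spacing itself limits these positions, since a summit between the starts is never farther from the nearest start than the midpoint, so the order of the medians in part restates the classes.

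**Figure D2:**
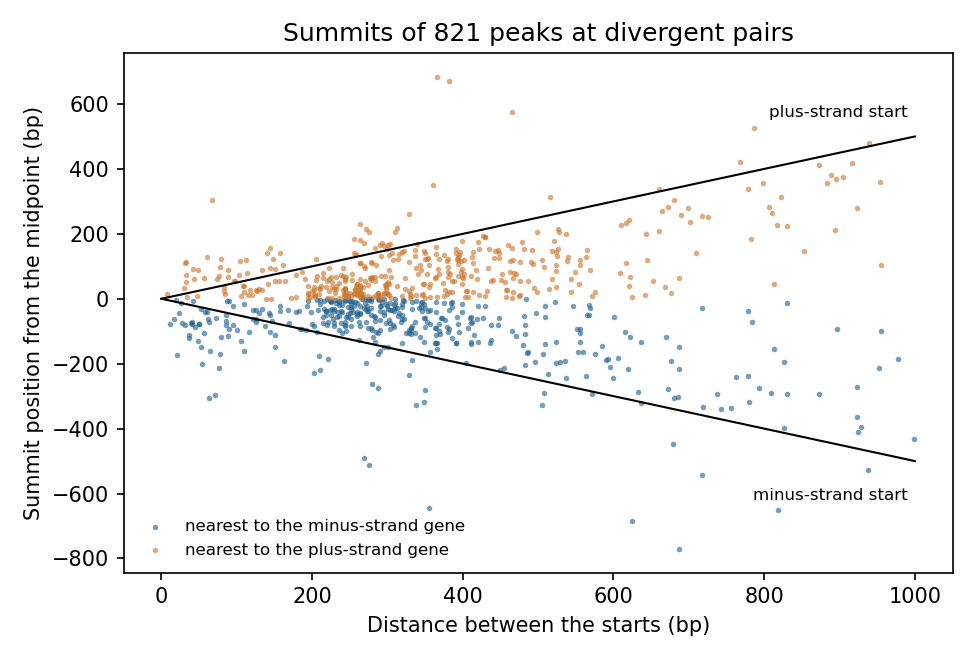
Each point is 1 of 821 member peaks: the distance between the starts (horizontal axis, bp) against the summit's position from the midpoint (vertical axis, bp), coloured by the nearest start, with lines for both starts. Points fill the wedge between the lines above 200 bp (88.9% between the starts at 201 to 300 bp), lie outside it at the closest spacings (14.7% between), and thin out around the midpoint in wide pairs (24.1% in the middle part at 501 to 1000 bp).

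The strongest member, and the strongest peak of all, was at Ugalt/eIF2Bbeta (chrX:2703689-2704081), a UDP-galactose transporter and a subunit of the factor that recharges translation initiation factor eIF2. Its signal was 1741 in the pooled set, 702 in replicate 1 (rank 2) and 1044 in replicate 3 (rank 1), and its summit was 26 bp upstream of Ugalt and 693 bp from eIF2Bbeta. Signals are compared within a list only, since each list has its own scale. The next was Chro/Ssl1 (chr3L:22878707-22879091), where Chro is a chromodomain protein of open interband chromatin and Ssl1 a subunit of the transcription factor TFIIH. Its signal was 1126, with 459 in replicate 1 (rank 7) and 671 in replicate 3 (rank 6). Its starts were 105 bp apart, and the summit lay 78 bp inside Chro.

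A mitochondrial ribosomal protein gene belonged to 3 of the 5 strongest members. At Art3/mRpS10 (chr3R:15229350-15229713), where Art3 is a protein arginine methyltransferase, the signal was 1068, with 482 in replicate 1 (rank 6) and 591 in replicate 3 (rank 10). Its summit was almost midway, 119 bp from Art3 and 138 bp from mRpS10, and the stretch printed above is 256 bases long. At mRpL41/CG8079 (chr2R:15217568-15217943) the signal was 1046, with 452 and 594, and the summit was 139 bp upstream of mRpL41. At mRpS23/CenG1A (chr2L:13835295-13835625), where CenG1A is a GTPase-activating protein for Arf, it was 1032, with 424 and 601. That summit was 96 bp upstream of CenG1A and 396 bp from mRpS23, so the mitochondrial gene was the farther of the pair.

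At PNPase/Gprk2 the signal was 946.3, with 412 and 534 in replicates 1 and 3, and the summit lay 74 bp inside PNPase, a mitochondrial polynucleotide phosphorylase. Gprk2, a kinase of G protein-coupled receptors, started 579 bp away. At Tcs5/CHMP2B, a kinase of the tRNA-modifying KEOPS complex beside a component of the ESCRT-III membrane complex, it was 924.1, with 434 and 491. Its summit was 105 bp from Tcs5 and 119 bp from CHMP2B. These 7 members ranked among the first 14 peaks in both replicates.

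The other 8 of the 15 strongest members ranked 24 to 50 in the pooled set. They were Pdrg1/Pal1 (signal 778.4), CG5611/Mtl (753.8), Lon/PIG-F (687.8, a mitochondrial protease and a GPI anchor enzyme), CG8372/CG8360 (667.2), CG13390/CG17294 (666.2), Fbw5/CG9147 (663.1, Fbw5 being an F-box protein), mRpL23/CG9004 (653.4) and CG5757/CG5098 (649.3). The largest ratio of their replicate ranks was at Pdrg1/Pal1, rank 43 in replicate 1 and 15 in replicate 3. Of the 15, 10 had the summit between the starts. Spacing ran from 50 bp at mRpL23/CG9004 to 762 bp at mRpL41/CG8079.

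The reproducible set was made from these same lists, so the values of both replicates for the members are a description and no independent check. In replicate 1 all 821 overlapped an entry of the full list and 708 (86.2%) overlapped 1 of its strongest 3974 entries. In replicate 3 the counts were 820 and 735 (89.5%), and 635 members (77.3%) were among the strongest in both. The exception was the weak peak at Ugt35D1/Gcn2 (signal 95.74), which ranked 2097 in replicate 1 and overlapped no entry in replicate 3. Peaks at single promoters were found about as often: the differences were 0.659 points in replicate 1 (−3.29 to 4.50) and −0.860 points in replicate 3 (−4.32 to 2.47), with intervals widened over 3 differences and including 0. Across 820 members the ranks had a Spearman rank correlation of 0.729, a value over peaks that share 2 libraries, and 648 (79.0%) ranked within 2-fold of each other. Summits called separately in the replicates lay 27 bp apart at the median.

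**Figure D3:**
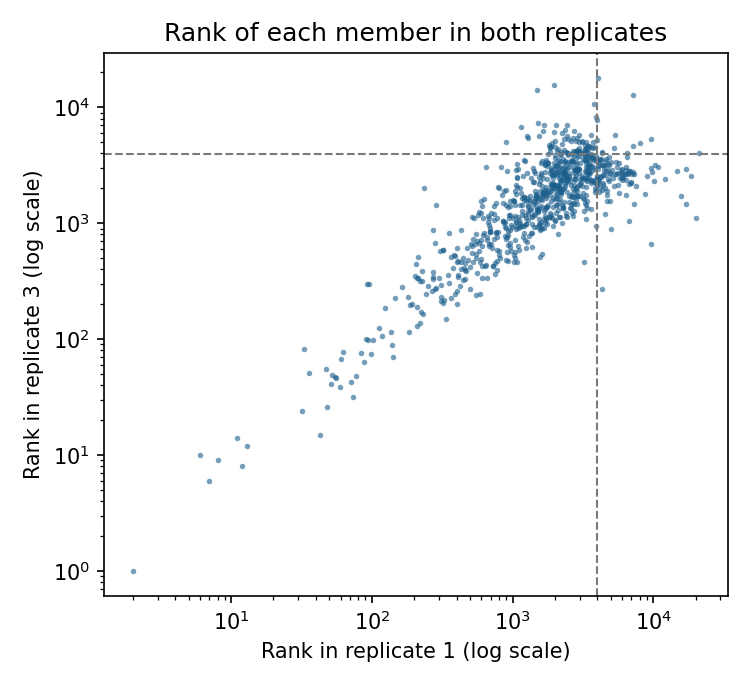
Rank of each member by signal in replicate 1 (horizontal) and replicate 3 (vertical), both on log scales, with dashed lines at rank 3974. The strongest members lie close to the diagonal, most points lie inside both lines (635 of 821), and stray points lie mostly at high rank numbers.

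A single peak per pair was the rule. Of 755 pairs with a member, 690 had 1, 64 had 2 and 1 had 3. In pairs 301 to 500 bp apart, all 25 with more than 1 member had a summit nearest each start, and at 501 to 1000 bp 13 of 16 did. At RpL28/eIF1, a ribosomal protein and an initiation factor 381 bp apart, 1 summit lay 87 bp upstream of RpL28 (signal 285.8, ranks 366 and 513 in replicates 1 and 3). The other lay 92 bp upstream of eIF1 (signal 147.3, ranks 827 and 3074). At Elp6/Dic1, an Elongator subunit and a mitochondrial dicarboxylate carrier, 3 summits had signals of 344.6, 193.6 and 123.0. Intervals of such neighbours often touch: 110 members overlapped another member, and 36 matched a replicate entry that another member also matched. The Lon/PIG-F pair has 2 entries with the same interval, 107 bp upstream of Lon (signal 687.8) and 56 bp inside PIG-F (82.96). The second had the largest ratio of replicate ranks among all members, 20129 against 1107 (18.2-fold). Among the 784 members with a replicate entry of their own, 15 had ranks over 5-fold apart.

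In all, 10 short motifs were searched on both strands in windows reaching 100 bp out from the summit both ways. They were the DRE, TATCGATA, the BEAF-32 core contained in it, CGATA, and the M1BP core, GGTCACAC. Sites of Six4 and of its relatives were represented by TGATAC (the Six4-type core) and by a MEF3-type site, TCAGGTTTC. The others were a homeodomain core, TAATTA, an E-box, CAGCTG, and the TATA box, TATAAA. The GAGA factor was represented by GAGAGAG, and the early embryonic activator Zelda by CAGGTAG, which was not called. DRE was in 90 members (11.0%) and in 3.85% of peaks at single promoters, a difference of 7.12 points (3.73 to 10.8, widened over 10 motifs). CGATA was in 44.7% against 32.1% (12.6 points, 6.22 to 18.9), and counted only outside a DRE in 39.0% against 30.8% (8.21 points, 1.97 to 14.4). GAGAGAG went the other way, 1.34% against 6.44% (−5.10 points, −7.69 to −2.62). TATAAA (44.8% against 35.4%) and CAGCTG (14.0% against 9.04%) were also more frequent at members. Members at pairs 501 to 1000 bp apart held DRE in 5.06% (interval 2.21 to 9.73%) and CGATA in 32.3% (25.1 to 40.2%). Those intervals include the shares at single promoters, 3.85% and 32.1%. In the classes of closer starts, DRE ran from 11.5% to 15.3% and CGATA was in at least 44.1%. The DRE intervals of the classes overlap, and differences between classes were not tested. In windows of 50 bp DRE alone was called, and in windows upstream of the TSS the CAGCTG difference turned to −0.935 points (14.7% against 15.7%, not called). The Six4-type core was in 5.60% of members, 5.29% of peaks at single promoters and 5.33% of windows over all protein-coding promoters, a difference of 0.314 points between the kinds of peak (−2.65 to 3.47). The MEF3-type site was in no member.

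Most motif shares of the members lay close to those of divergent promoters as a whole. In windows that run from the TSS to 200 bp upstream, which remove the unequal distance of the summits, DRE was in 12.9% of members and 4.62% of peaks at single promoters. Over all genes, bound or not, it was in 12.6% of those with a divergent partner and 4.76% of the others, taking the outermost TSS of each gene. CGATA gave 50.3% and 31.2% for the peaks and 50.5% and 32.4% for all genes. At the midpoint of the pairs DRE was in 8.48% of pairs with a member and 8.58% of pairs without. GAGAGAG was in 1.71% of members and 2.43% of all genes with a partner, but in 15.4% of peaks at single promoters and 5.88% of all genes without a partner. The M1BP core was in 4.75% of members and 7.01% of all genes with a partner. The motifs that did separate pairs with a member from pairs without at the midpoint were TAATTA (26.1% against 20.5%, 5.59 points, 0.573 to 10.9) and TATAAA (47.3% against 36.8%, 10.5 points, 4.52 to 16.4). The GC content of these midpoint windows was 31.7% and 34.9%, and its part in the difference of these AT-only motifs was not tested. Spacing also differed, with quartiles of 216 and 419 bp in pairs with a member and 140 and 538 bp in pairs without. In close pairs the window reaches past both starts, and the part of spacing was not tested. In the TSS windows, mean GC was 34.7% for members and 41.6% for peaks at single promoters.

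**Figure D4:**
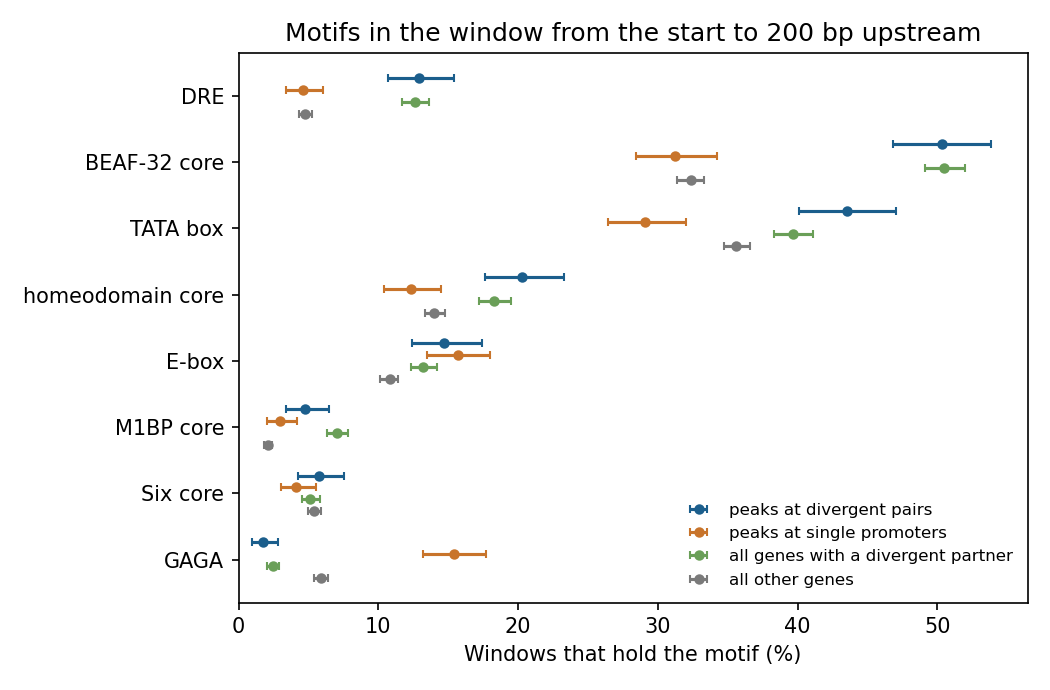
Share of windows with a motif (horizontal axis, %, exact 95% intervals) for 8 motifs in 4 sets: peaks at divergent pairs, peaks at single promoters, all genes with a divergent partner and all other genes. For DRE the members (12.9%) lie beside all genes with a partner (12.6%) and away from peaks at single promoters (4.62%), and for GAGA the peaks at single promoters (15.4%) stand apart from the other 3 sets.

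Motif positions were measured only within 100 bp of the summit, which bounds the distances, and no expected distance was computed. In the 90 members with a DRE, it lay 56 bp from the summit at the median, and within 50 bp in 42 (46.7%). It lay 38 bp upstream of the nearest TSS at the median (quartiles −62.2 and −9.50 bp), and in 75 (83.3%) it was between the starts. The strongest of them were Atat/Shc (a tubulin acetyltransferase and an adaptor of receptor tyrosine kinases; signal 618.3, ranks 77 and 48 in replicates 1 and 3), fws/Lamtor3 (a Golgi tethering subunit and a lysosomal Ragulator subunit; 384.3, ranks 337 and 149) and GCS2beta/CG5131 (288.8, ranks 409 and 471). Median signal was 129 with a DRE and 132 without. The M1BP core lay nearer to the TSS, at −6.50 bp in the 35 members that held it, the strongest being CG3698/tzn (407.4), Phf5a/CG31638 (396.3) and Ripalpha/RpL7 (280.7). Of the 3 motifs positioned, the Six4-type core had the smallest median distance to the summit, 37.5 bp in 46 members, and lay within 50 bp in 28 (60.9%). Whether that is closer than random placement in the window was not tested. Its strongest holders were Mppe/pds5 (507.6, pds5 being a cohesin regulator), CG7183/CG7988 (481.1) and Pax/Alp12 (397.0, Pax being the adhesion protein paxillin). Of all members, 512 (62.4%) held none of DRE, the M1BP core, the Six4-type core, the MEF3-type site or TAATTA.

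Among gene lists, cytosolic ribosomal protein genes were the most often bound. Of 92 such genes 55 had a divergent partner, and 35 of the 55 (63.6%, interval 49.6 to 76.2%) belonged to a pair with a member, beside 29.8% of all genes with a partner. The ribosomal protein gene was the nearest gene of a member in 31 of them. At RpS27/Nup37 (a nucleoporin gene on the plus strand) the signal was 415.1, with 223 in replicate 1 (rank 92) and 185 in replicate 3 (rank 299). At RpL32/CG7943 it was 319.4, with 165 and 158. Both ranked higher in replicate 1 than in replicate 3. Mitochondrial ribosomal protein genes had a partner more often (58 of 73, 79.5%), and 23 of the 58 (39.7%) were at a pair with a member. The interval of that share, 27.0 to 53.4%, includes the 29.8% of all genes with a partner. In 10 of these 23 the mitochondrial gene was the nearest.

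The other lists of widely used genes lay around the background of 29.8%, with intervals, not widened for the 24 lists, that include it. Vesicle transport genes gave 21 of 60 (35.0%, with Vps33B and Vps52), ubiquitin conjugation 12 of 28 (42.9%, with Uba2 and Uba3), aminoacyl-tRNA synthetases 9 of 22 (40.9%, with IleRS and SerRS) and Mediator subunits 8 of 19 (42.1%, with MED15 and MED30). DNA repair genes gave 6 of 16, RNA polymerase subunits 7 of 19, nucleoporins 6 of 18, complex I of the respiratory chain 7 of 22, complexes III to V 7 of 23 and mitochondrial import 2 of 5. Spliceosome genes gave 8 of 29, proteasome subunits 7 of 26, translation factors 7 of 26, DNA replication 6 of 23, general transcription factors 4 of 17 and cell-cycle genes of the anaphase promoting complex and cyclins 2 of 9. Insulator and core promoter factors gave 4 of 8, among them Chro, Cp190 (signal 516.4) and M1BP (248.8), which bind at such promoters themselves. The list gene was the nearest gene in 1 of these 4, Chro. At the peaks given for Cp190 and M1BP the partners, CG4338 and CG8202, were nearer. Genes known only by a CG number gave 444 of 1757 (25.3%, interval 23.3 to 27.4%), below the background. Over pairs, 168 of 473 (35.5%, interval 31.2 to 40.0%) with a gene of the 18 cell-maintenance lists had a member, as did 587 of 2194 (26.8%, interval 24.9 to 28.7%) with none. Those 18 lists include the cytosolic ribosomal proteins (35 of 55 genes, 63.6%), and the share of pairs without that list was not computed.

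Genes of the tissues in which Six4 is known to act are set here beside all genes, of which 36.2% had a divergent partner. Cuticle protein and chemoreceptor genes, which are not lists of those tissues, are given with them. Of 41 mesoderm and muscle regulators 5 did (12.2%), and 1 of the 5 (interval 0.505 to 71.6%, which includes the 29.8% of all genes with a partner) was at a pair with a member, mbc, which encodes a Rac activator needed for myoblast fusion. The peak at Nup98-96/mbc had a signal of 161.8 (ranks 1297 and 1409 in replicates 1 and 3), and its summit lay 31 bp inside Nup98-96, the nucleoporin gene, and 175 bp from mbc. Of 26 muscle structure genes 6 had a partner (23.1%), and none was at a pair with a member (interval up to 45.9%, which includes 29.8%). Of 122 cuticle protein genes 13 had a partner (10.7%), and none was at such a pair (interval up to 24.7%). Of 179 chemoreceptor genes 26 had a partner (14.5%), and 2 of the 26 were at such a pair (7.69%, interval 0.946 to 25.1%), Gr32a and Ir60e, and in both cases the partner was the nearest gene. None of these list intervals was widened for the 24 lists. Six4 itself has no divergent partner.

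**Figure D5:**
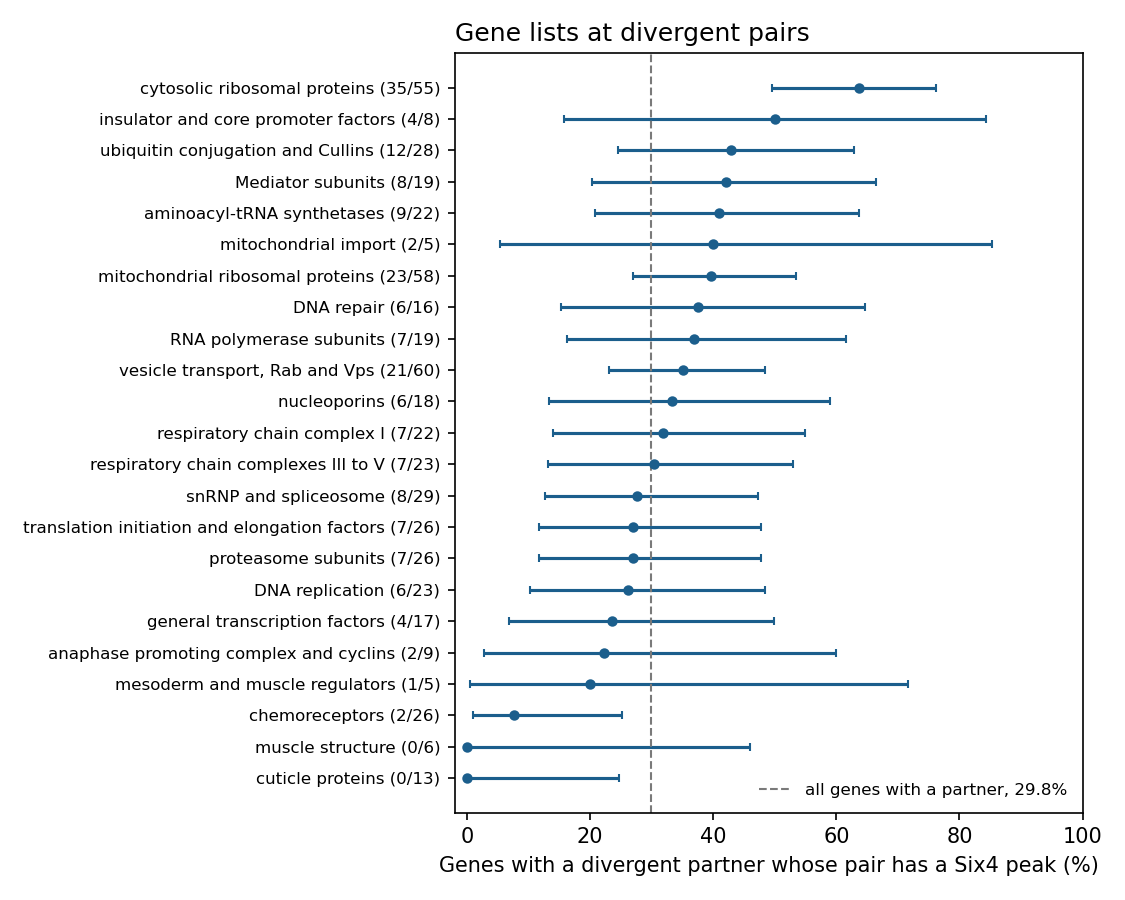
For each gene list, the share of genes with a divergent partner whose pair has a Six4 peak (horizontal axis, %, exact 95% intervals, counts in brackets), with a dashed line at 29.8% for all such genes. The interval of cytosolic ribosomal proteins (63.6%) lies wholly to the right of the line, those of chemoreceptors and cuticle proteins wholly to the left, and the other lists drawn here cross it. The intervals were not widened for the 24 lists. Genes known only by a CG number (25.3%) are not drawn.

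Pairs on the X chromosome were bound less often than pairs on the autosomes, a contrast noticed after the values had been seen. On X 78 of 403 pairs (19.4%, interval 15.6 to 23.6%) had a member, against 677 of 2253 (30.0%) on the 4 large autosomal arms, which ranged from 26.2% on 2R to 33.4% on 3L. The difference was −10.7 points (−14.7 to −6.16) in the pooled set, −10.2 points (−14.2 to −5.63) in replicate 1 and −11.0 points (−15.0 to −6.55) in replicate 3. Genes without a partner showed no such gap, with a summit at 10.5% on X and 9.09% on the autosomes (1.38 points, −0.257 to 3.20). X held 9.99% of the members, 19.3% of the peaks at single promoters and 20.0% of all other peaks. Median spacing was 304 bp on X and 276 to 315 bp on the large autosomal arms. The share of pairs with starts over 200 and up to 500 bp apart was 43.2% on X, 40.7% on 2L, 38.3% on 2R, 53.1% on 3L and 50.2% on 3R, and the part of spacing in the difference was not tested. On chromosome 4 none of 11 pairs had a member, where the interval reaches 28.5%. Males carry 1 X, and the part of that lower copy number in the pooled embryos was not tested.

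Single examples lay just inside and just outside the limits of the rule. The rule gave 786 members with summits within 250 bp, 821 within 500 bp and 874 within 1000 bp. With spacing up to 500 and 2000 bp it gave 663 and 993. The member with the farthest summit was 500 bp inside SREBP, a regulator of lipid synthesis (CG42637/SREBP, signal 203.3), and the nearest excluded summit was 512 bp from Marf, paired with swa. Spacing is taken here from the TSS nearest to the summit to the nearest TSS of its partner. By this measure the closest starts among the members were 8 bp apart, at SerRS/CG17260 (signal 266.0, ranks 634 and 428 in replicates 1 and 3), with the summit 10 bp inside CG17260. The widest spacing of a member was at hts/CalpA, 999 bp (88.41), an adducin and a calpain, and the first pair past the limit was Droj2 with mRpS21 at 1013 bp.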

How the data were processed

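Peak lists of 2 ChIP-seq samples and of their pool were used on build dm6. Per the listing the authors deposited, a replicate's list holds peaks and background as IDR input, and the IDR thresholded set was derived from these lists. The set equals the strongest 3974 entries of the pooled list. The signal of each peak and its −log10 q are the authors' deposited values, and the signal's scale, the aligner, the peak caller and the library depths are not given in the sources used. Ranks were taken from the signal. Starts came from Ensembl 115 (FlyBase 6.54) and sequences from the RefSeq copy of the Release 6 genome, with coordinates counted from 1.

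Shares have exact (Clopper-Pearson) 95% intervals and differences Newcombe intervals, widened by Bonferroni where stated, and a difference was called where its interval left out 0. Overlap means 1 bp or more. Named pairs were the 15 strongest members, up to 3 per gene list, the strongest with each of DRE, the M1BP core and the Six4-type core, the extremes of spacing, distance and replicate rank, and pairs with several members, while RpL28/eIF1 was picked as an example after its values were seen. Sequences printed for a motif came from the strongest members off 2R whose stretch between the starts was 50 to 300 bases, held no annotated exon, and held both summit and motif, which also brought in pairs outside that rule. Members, motifs and gene lists were chosen with earlier results of these data known. The 24 gene lists were matched by symbol, and 3 of the patterns were corrected after their matches had been read. Rule, motif search and intervals were tested on simulated data. Python 3.11.15, scipy 1.17.1, numpy 2.4.6 and matplotlib 3.10.9 were used.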

Additional observations from a re-analysis of the deposited data

How the results depend on the processing

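The share of promoter peaks at divergent pairs was 53.7% with summits within 250 bp, 39.3% within 1000 bp, 35.6% with spacing up to 500 bp, 53.4% up to 2000 bp and 49.4% with the outermost TSS of each gene. The share of genes with a partner, 36.2% at spacing up to 1000 bp, was not computed for spacing up to 500 or 2000 bp. The peak shares at those spacings therefore cannot be set against it. The share of pairs with a member was 31.0% and 25.7% at spacings up to 500 and 2000 bp, 15.6% in the stronger 50% of the set (431 members) and 31.0% when any summit within 500 bp of either start counted, which was chosen after seeing the data. Summits between the outermost starts came to 69.9%. Members found in replicate 3 were 86.2% with summits within 100 bp and 99.9% over the whole list, and in replicate 1 100% over the whole list. With 1 replicate alone there were 798 to 814 members, 43.1 to 43.2% of promoter peaks and 27.9% of pairs, the median rank was at 45.1 to 47.3% of the list, and 6 motifs were called in place of 5, TAATTA being added (5.25 and 6.71 points). In windows of 50 bp 1 motif was called, DRE; in windows of 250 bp 7 were, with GGTCACAC (8.27 points) and TAATTA (7.86 points) added. TAATTA was also called in the stronger 50% of the set (7.46 points) and in the TSS windows (8.03 points). In the TSS windows, chosen after seeing the data, the CAGCTG difference reversed to −0.935 points and was not called. The cause of these shifts was not tested. No paired analysis was possible because there is 1 group.

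Depth is unknown, no control list was analysed here, and 2 replicates of 1 line give no spread between conditions. Annotated starts, not starts measured in these embryos, define the pairs. Neighbouring entries overlap, so a replicate entry can stand for both members of a pair.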
